A study of Mus musculus with 4 samples.

Results

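Gm gene models are mouse genes known only by a running number after the letters Gm, a provisional name given to loci that annotation predicted before a function was assigned. Their levels were read here in the embryonic stem (ES) cell line CCE, derived from 129SV mice and kept in 15% serum with leukemia inhibitory factor on gelatin. In 2 libraries the cells had received the hairpin shTex10, a short RNA that depletes the Tex10 transcript, and in the other 2 the hairpin shLuci, which targets firefly luciferase and serves as the control. The series concerns Tex10 in ES cell pluripotency, and poly(A) RNA was sequenced with 100-bp single-end reads. Each value is an FPKM, a read count scaled to transcript length and to the mapped fragments of the library.

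The deposited tables held 1064 names that consist of Gm and digits alone, among 22739 gene names. The 167 described here were chosen by their mean FPKM over the 4 libraries, which had to be at least 1, so their levels are a description and not a finding. Of the other 897 models, 359 were listed at 0 in all 4 libraries. The models just outside that limit were Gm16845, Gm8298 and Gm9268, with means of 0.969, 0.971 and 0.995 FPKM. Just inside it were Gm5577, Gm1322 and Gm9758, with means of 1.03, 1.04 and 1.07 FPKM. All 167 had a value above 0 in every library.

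Such names gather unrelated kinds of loci. Some are members of expanded protein families, such as the Pramel family of leucine-rich repeat proteins or the Tdpoz family of POZ domain proteins, both known from the germ line and the early embryo. Others are long non-coding RNAs, or processed pseudogenes, copies of a parent gene's mRNA that were inserted elsewhere in the genome. A small share of ES cells in culture passes through a 2-cell-like state, in which genes of the 2-cell embryo are transcribed, and many of those genes lie in tandem arrays that carry Gm names.

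In later RefSeq annotation 60 of the 167 models have received a proper name, which is given here in brackets. RefSeq classes 90 of them as protein-coding, 46 as long non-coding RNA, 30 as pseudogenes and 1 as a small nucleolar RNA. For 44 models, another gene has a transcript at least 95% identical over at least 80% of the length, and 63 lie on a locus that overlaps another named locus. Reads of near-identical copies can be assigned to either copy, and it is not stated whether the assignment of reads used strand. Values of such models are therefore uncertain for the single gene.

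The targeted gene checked the labels. Tex10 had 11.6 and 13.4 FPKM in the shTex10 libraries, against 77.3 and 82.1 FPKM in the shLuci libraries, a log2 change of -2.58 (SE 0.10, limma, Benjamini-Hochberg adjusted p = 0.00014). Between 11533 and 12003 named genes reached 1 FPKM in a library, and depth is unknown because FPKM keep no read totals. Of 10 ES cell markers 0 rose and 7 fell in shTex10, and all 10 were above the mean of 1, with sums of 4324 and 4684 FPKM in shTex10 and 5363 and 5773 FPKM in shLuci. The largest part of these sums is Dppa5a, which did not pass the test (log2 change -0.01). It had 2467 and 2917 FPKM in shTex10 and 2432 and 2999 FPKM in shLuci. Fibroblast markers summed to 44.5 and 33.2 FPKM in shTex10 and 38.5 and 29.9 FPKM in shLuci, with 6 of 10 below the mean of 1. Of the 4 tested only Col1a2 passed, lower by a log2 change of -0.71. Col1a1, the largest part of these sums, went the other way without passing (log2 change 0.65, limma adjusted p = 0.0607). It had 30.1 and 20.8 FPKM in shTex10 and 18.8 and 12.8 FPKM in shLuci. Primitive endoderm markers summed to 41.6 and 35.5 FPKM in shTex10 and 41.5 and 38.9 FPKM in shLuci, with 7 of 10 below it, and Col4a1 makes up most of these sums. Of the 3 tested, Lama1 fell to 2.38 FPKM in shTex10, against 9.19 FPKM in shLuci (-1.59), and Dab2 rose to 3.29 FPKM in shTex10, against 1.28 FPKM in shLuci (0.91). The part of these cell types in the results was not tested.

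The summed level of the Gm models was higher in both shTex10 libraries. Their FPKM summed to 3610 and 3860 in the shTex10 libraries, against 2242 and 2415 in the shLuci libraries, which was 0.686% and 0.718% of all named FPKM in shTex10 and 0.365% and 0.382% in shLuci. Of the 167 models 87 changed (52.1%, beside 51.6% of all 11883 genes tested), of which 59 rose and 28 fell in shTex10 (limma on log2(FPKM + 1), Benjamini-Hochberg adjusted p under 0.05). That is 35.3% higher and 16.8% lower, beside 19.8% higher and 31.8% lower among all genes tested. By at least 2-fold on that scale, 36 models rose (21.6%, beside 5.98% of all genes) and 3 fell (1.80%, beside 3.05%). The shTex10 libraries both exceeded the shLuci ones for 74 models (44.3%, beside 28.3%) and both lay below them for 45 (26.9%, beside 48.1%), and the groups overlapped for 48. In whole cultures, fewer cells of a type and less RNA per cell cannot be told apart.

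The median log2 change, shTex10 minus shLuci, was 0.14 over the models and -0.14 over all genes tested, a gap of 0.28. Rescaling each library to the same sum over named rows moved the median of all genes by 0.20, to 0.06, and that of the models to 0.33, a gap of 0.26. Under that scaling 72 models were higher and 11 lower, and 3234 of all genes were higher and 1906 lower, against 2350 higher and 3779 lower as deposited. Some models reached the mean of 1 mainly through one group, which favours a difference: 19 had an shLuci mean under 1, of which 16 rose, and 5 had an shTex10 mean under 1, of which 4 fell. Among the 143 models with a mean of at least 1 in each group, 43 rose (30.1%, beside 17.4% of genes chosen alike) and 24 fell (16.8%, beside 32.4%). Their median log2 change was smaller, 0.049, beside -0.15 for genes chosen alike. Without the Gm models listed for the 2-cell-like state, the median over the others was 0.073, but those still included relatives of the listed genes.

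**Figure D1:**
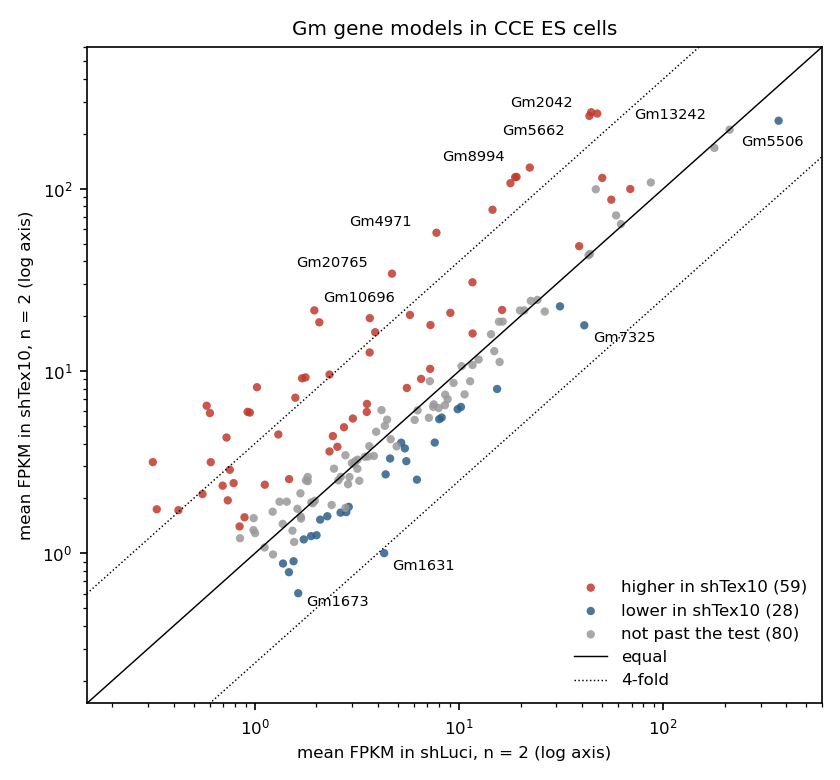
Mean FPKM of each of the 167 Gm models in shTex10 (vertical, log axis) against shLuci (horizontal, log axis), with n = 2 libraries per group. Each point is a model, coloured by the limma call, and the lines mark equal values and a 4-fold difference; the 59 models that rose run from close to the line of equality, as Gm13212 at 1.25-fold, to beyond the upper 4-fold line, while of the 28 that fell only Gm1631 lies below the lower 4-fold line.

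**Figure D2:**
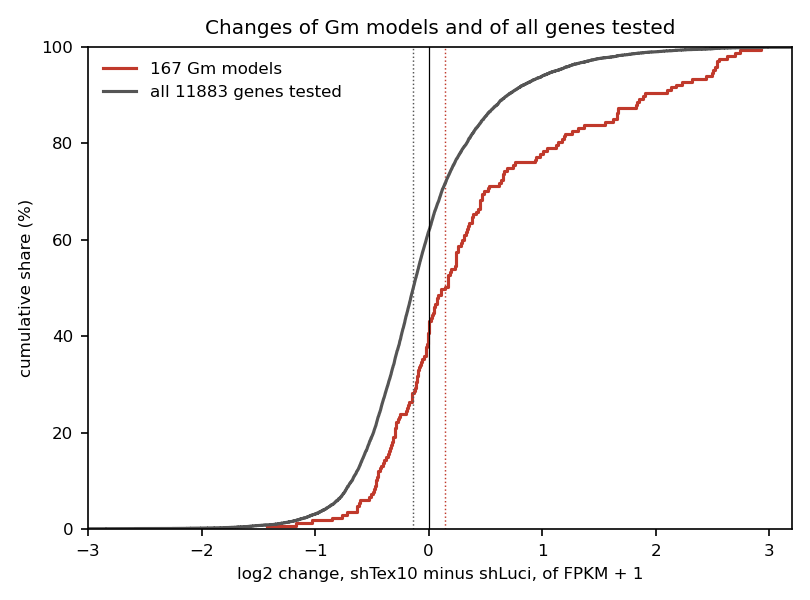
Cumulative share of features by log2 change of FPKM + 1, shTex10 minus shLuci, for the 167 Gm models and for all 11883 genes tested. The dotted lines mark the medians, 0.14 for the models and -0.14 for all genes; the curve of the models lies to the right and runs on to 2.93.

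A log2 change of at least 2 was seen in 16 of the 167 models (9.58%), beside 117 of all 11883 genes tested (0.985%). Among protein-coding models 39 of 90 rose (43.3%) and 8 fell (8.89%), with a median log2 change of 0.25. Among long non-coding RNAs 13 of 46 rose and 13 fell (28.3% each), with a median of 0.00. Among pseudogenes 7 of 30 rose and 7 fell (23.3% each), with a median of 0.02. The shares over all genes were 19.8% higher and 31.8% lower. Nearest to them were the falls of the long non-coding RNAs (28.3%) and the rises of the pseudogenes (23.3%). The rises of the long non-coding RNAs (28.3%) were above the share of all genes, and the falls of the pseudogenes (23.3%) below it. The differences between the classes were not tested. All log2 changes are on the log2(FPKM + 1) scale, which understates the change of low genes.

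The largest change was in the Tdpoz and Spop group, whose members carry a POZ (BTB) domain, a protein interaction module. Gm10696 (Spopfm2; mm9 chromosome 3, 93712151 to 94073488) had 20.7 and 22.3 FPKM in the shTex10 libraries, against 1.85 and 2.06 FPKM in the shLuci libraries. The groups were far apart, with means of 21.5 ± 1.15 FPKM in shTex10 and 1.95 ± 0.144 FPKM in shLuci (SD, n = 2 each) and a log2 change of 2.93 (SE 0.10, limma, Benjamini-Hochberg adjusted p = 0.00014). Gm9125 (Tdpoz9) had 5.98 and 6.92 FPKM in shTex10 and 0.533 and 0.626 FPKM in shLuci, and shares its locus and a further row with Gm10696. It passed the mean of 1 only through shTex10. Gm4858 (Tdpoz8) had 8.09 and 8.21 FPKM in shTex10, against 1.03 and 1.01 FPKM in shLuci. Both rose without overlap of the groups, with log2 changes of 2.24 and 2.18 (adjusted p = 0.00018 and 0.000146 by limma). Tdpoz4, the gene most similar to Gm4858 (93.8% identity over part of the transcript), also rose, by 2.98.

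The promoters of 6 of the largest risers are printed because they share a run of bases. Gm10696, Gm9125 and Gm4858 lie on chromosome 3 and the others on chromosomes 10, 6 and 17. Each window runs from 250 bases before to 50 bases after the RefSeq transcription start in GRCm38.p6, written along the gene's own strand. The 13 bases in capitals are the longest run common to Gm10696, Gm9125, Gm4858, Gm20765 and Gm8994, which are among the 15 largest rises, and Gm21947 holds it too. The models used to find the run were picked outside the chromosome 12 and Pramel groups. Gm4971 and Gm7102, also among the 15 largest rises and outside those groups, were not used and are not among the genes found to hold it. Capitals also mark the run on the opposite strand.
Gm10696 (Spopfm2), chr3:94178144-94178443, minus strand: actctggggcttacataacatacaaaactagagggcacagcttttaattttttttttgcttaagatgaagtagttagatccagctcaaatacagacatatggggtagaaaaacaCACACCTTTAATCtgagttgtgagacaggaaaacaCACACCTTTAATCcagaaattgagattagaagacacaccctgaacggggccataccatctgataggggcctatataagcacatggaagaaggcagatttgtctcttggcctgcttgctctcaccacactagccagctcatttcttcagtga
Gm9125 (Tdpoz9), chr3:94054836-94055135, minus strand: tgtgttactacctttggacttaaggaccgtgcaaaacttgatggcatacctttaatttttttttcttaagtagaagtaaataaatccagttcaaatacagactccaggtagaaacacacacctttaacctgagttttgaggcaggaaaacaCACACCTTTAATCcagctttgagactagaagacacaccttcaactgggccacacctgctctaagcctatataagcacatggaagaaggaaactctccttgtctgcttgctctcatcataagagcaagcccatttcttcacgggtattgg
Gm4858 (Tdpoz8), chr3:93068573-93068872, plus strand: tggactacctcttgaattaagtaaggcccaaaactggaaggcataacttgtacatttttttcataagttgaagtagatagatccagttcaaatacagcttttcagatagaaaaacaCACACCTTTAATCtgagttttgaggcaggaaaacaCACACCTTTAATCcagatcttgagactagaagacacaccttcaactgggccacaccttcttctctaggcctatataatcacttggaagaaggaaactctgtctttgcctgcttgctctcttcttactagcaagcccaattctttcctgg
Gm20765, chr10:104185283-104185582, plus strand: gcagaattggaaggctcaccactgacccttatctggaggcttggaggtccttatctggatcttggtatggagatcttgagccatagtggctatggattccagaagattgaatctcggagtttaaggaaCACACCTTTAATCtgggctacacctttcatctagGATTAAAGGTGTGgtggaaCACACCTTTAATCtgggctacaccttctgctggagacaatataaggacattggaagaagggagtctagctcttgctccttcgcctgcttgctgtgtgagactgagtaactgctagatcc
Gm8994 (Eif4a3l1), chr6:136327289-136327588, plus strand: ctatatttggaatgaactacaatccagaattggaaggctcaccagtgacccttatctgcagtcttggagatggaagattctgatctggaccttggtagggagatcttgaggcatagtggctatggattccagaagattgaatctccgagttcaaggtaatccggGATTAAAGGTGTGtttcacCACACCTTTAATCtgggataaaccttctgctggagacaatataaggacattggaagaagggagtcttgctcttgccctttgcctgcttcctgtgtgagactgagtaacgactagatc
Gm21947 (Esp24), chr17:39036445-39036744, plus strand: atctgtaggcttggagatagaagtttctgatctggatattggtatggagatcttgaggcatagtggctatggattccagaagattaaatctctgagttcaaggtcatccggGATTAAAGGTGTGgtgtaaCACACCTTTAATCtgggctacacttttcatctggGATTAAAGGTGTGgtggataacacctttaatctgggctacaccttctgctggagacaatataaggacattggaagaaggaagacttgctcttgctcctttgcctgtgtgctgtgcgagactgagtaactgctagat
For Gm4858 RefSeq lists 2 starts, and the window of the first is shown. Gm10696, Gm9125 and Gm4858 lie on chromosome 3 and their windows are 79.6% to 84.5% identical. Gm20765, Gm8994 and Gm21947 lie on chromosomes 10, 6 and 17, and the Gm20765 window is 82.7% identical to that of Gm21947 and 80.7% to that of Gm8994. The pair Gm21947 and Gm8994 is 74.7% identical.

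The run CACACCTTTAATC was found after these sequences and their changes had been seen. On either strand it occurs in the windows of 49 of 27025 genes (0.181%), among them 6 of the 115 models that have a window. Of the 42 models with a window that rose, these 6 (14.3%) hold the run. Besides the 5 models it was found from, 44 genes hold it, of which 24 have no row of their own in the tables, 13 are below a mean of 1 FPKM and 7 were tested. Of those 7, 5 rose, beside 19.8% of all genes tested: Gm21947, B020004J07Rik (Pramel17 in RefSeq), Sp110, Zfp352 and Pemt. Sgk1 and Zbed3 did not pass the test, with log2 changes of -0.16 and -0.14. Sp110 and Zfp352 also stand on the list of 2-cell-like genes, and Gm21947 passed the mean of 1 only through shTex10. The run was itself found from risers, so the count is a description.

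A second pair of motifs was searched on both strands, each without regard to overlap with the other or with the run. The motif of DUX, a transcription factor of the 2-cell embryo (TGATT, any 1 base, AATCA), was in the windows of 11 of 27025 genes (0.0407%) and in 0 of the 115 models. At so low a share, 115 windows are too few for a count of 0 to tell the models from all genes. The exact bases TATAAA, a form of the TATA box, were at any position in the windows of 7 of the 115 models (6.09%), beside 15.7% of all genes. Variants were not counted, such as TATAAG, which stands in several of the windows printed above. The shares are therefore not those of TATA boxes in general. The Dux transcript itself rose, with a mean of 8.79 FPKM in shTex10 and 1.76 FPKM in shLuci.

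Gm20765 and Gm8994, whose windows resemble each other, were both strongly higher. Gm20765 (chromosome 10, 103631096 to 103633576) had 32.1 and 36.4 FPKM in the shTex10 libraries and 4.89 and 4.49 FPKM in the shLuci libraries. Gm8994 (Eif4a3l1), named for its likeness to the helicase of the exon junction complex, had 131 FPKM in both shTex10 libraries, against 23.1 and 21.3 FPKM in the shLuci libraries. The groups did not overlap for either model, and the log2 changes were 2.63 (SE 0.10) and 2.51 (SE 0.09; limma, Benjamini-Hochberg adjusted p = 0.000143 and 0.00014). Gm20765 has 6 near-identical copies, among them Gm21293 at 100% identity, and Gm8994 has 2. Gm21947 (Esp24), of the family of exocrine gland-secreted peptides, had 4.88 and 7.06 FPKM in shTex10 and 0.717 and 1.12 FPKM in shLuci, a log2 change of 1.85 (adjusted p = 0.00101).

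A genomic group of risers lay on chromosome 12. Within 750 kb (mm9 chromosome 12, 88819119 to 89569046), 6 models with gaps of at most 100 kb between neighbours all rose: Gm8300, Gm2016, Gm2022, Gm2042, Gm5662 and Gm21319. Their FPKM summed to 772 and 888 in the shTex10 libraries, against 133 and 159 in the shLuci libraries, a 5.68-fold ratio, and their log2 changes ran from 2.14 to 2.54. Transcripts of 5 of them align to Eif1a, which encodes a translation initiation factor, at 86.0% to 94.9% identity, over 99.8% of the transcript for Gm2022 but only 52.8% to 56.7% for the other 4. Gm2042 is instead 99.6% identical to Oog1, an oocyte gene. Eif1a itself averaged 141 FPKM in shTex10 and 146 FPKM in shLuci and did not pass the test (log2 change -0.05, adjusted p = 0.762).

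Within this cluster the most abundant models were Gm2042 and Gm5662, which share the merged locus 89158228 to 89569046. Gm2042 had 252 and 265 FPKM in the shTex10 libraries, against 39.0 and 56.0 FPKM in the shLuci libraries. Gm5662 had 225 and 277 FPKM in the shTex10 libraries, against 41.5 and 45.5 FPKM in the shLuci libraries. Neither pair of groups overlapped. At the low end Gm21319 had 17.9 and 21.1 FPKM in shTex10 and 3.62 and 3.69 FPKM in shLuci. Gm2022, whose transcript is near-identical to those of 17 other genes, had 108 and 125 FPKM in shTex10, against 19.3 and 19.0 FPKM in shLuci. Over an order of magnitude of levels the ratio of means stayed between 5.26 for Gm2016 and 6.08 for Gm2022. Just beside the cluster Slirp, which encodes a mitochondrial RNA-binding protein, fell (log2 change -0.45), and Snw1 did not pass the test (0.17).

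The Pramel family has 6 members among the models, 5 of which rose, beside 19.8% of all genes tested. Of those 5, Gm13078 and Gm13083 passed the mean of 1 only through shTex10, with shLuci means of 0.943 and 0.316 FPKM, so their rise was favoured by the choice of models. Gm12794 (Pramel19; chromosome 4, 101562053 to 101618016) had 107 and 124 FPKM in the shTex10 libraries, against 17.5 and 20.1 FPKM in the shLuci libraries. Gm13109 (Pramel16) had 18.6 and 18.4 FPKM in shTex10, against 1.51 and 2.63 FPKM in shLuci. For both models the groups were widely separated, with log2 changes of 2.56 (SE 0.12) and 2.69 (SE 0.18; limma, Benjamini-Hochberg adjusted p = 0.000172 and 0.000339). Gm13119 (Pramel31) and Gm13078 (Pramel24) rose by 1.83 each and Gm13083 (Pramel21) by 1.66. Gm13128 (Pramel30), on the same stretch of chromosome 4, had 3.96 and 4.49 FPKM in shTex10 and 4.63 and 4.61 FPKM in shLuci. Its log2 change was -0.11 (SE 0.10, adjusted p = 0.39), and it turned to 0.08 when libraries were rescaled to the same named sum. Its transcript is 99.3% identical to that of Pramef17, which did not pass the test either (0.12).

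Of 24 Gm models listed for the 2-cell-like state, 15 were in the tables and 10 passed the mean of 1. All 10 rose, beside 19.8% of all genes tested, with a median log2 change of 2.47, and they are the 6 of chromosome 12, Gm8994 and the Pramel members Gm12794, Gm13119 and Gm13078. Of 22 tested genes of that state with other names, 19 rose, with a median of 2.26. The list was written with earlier results of these data known, so its direction is not independent evidence. Without these 10 models the others numbered 157, of which 49 rose and 28 fell, beside 19.8% higher and 31.8% lower among all genes tested. These others still include relatives and neighbours of listed genes. Among them are the Tdpoz models Gm4858 and Gm9125 and the Pramel models Gm13109 and Gm13083. Gm20765 shares a row with the listed Gm4340, and Gm11544 overlaps the listed Tmem92. The count is thus not one of models apart from that state.

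**Figure D3:**
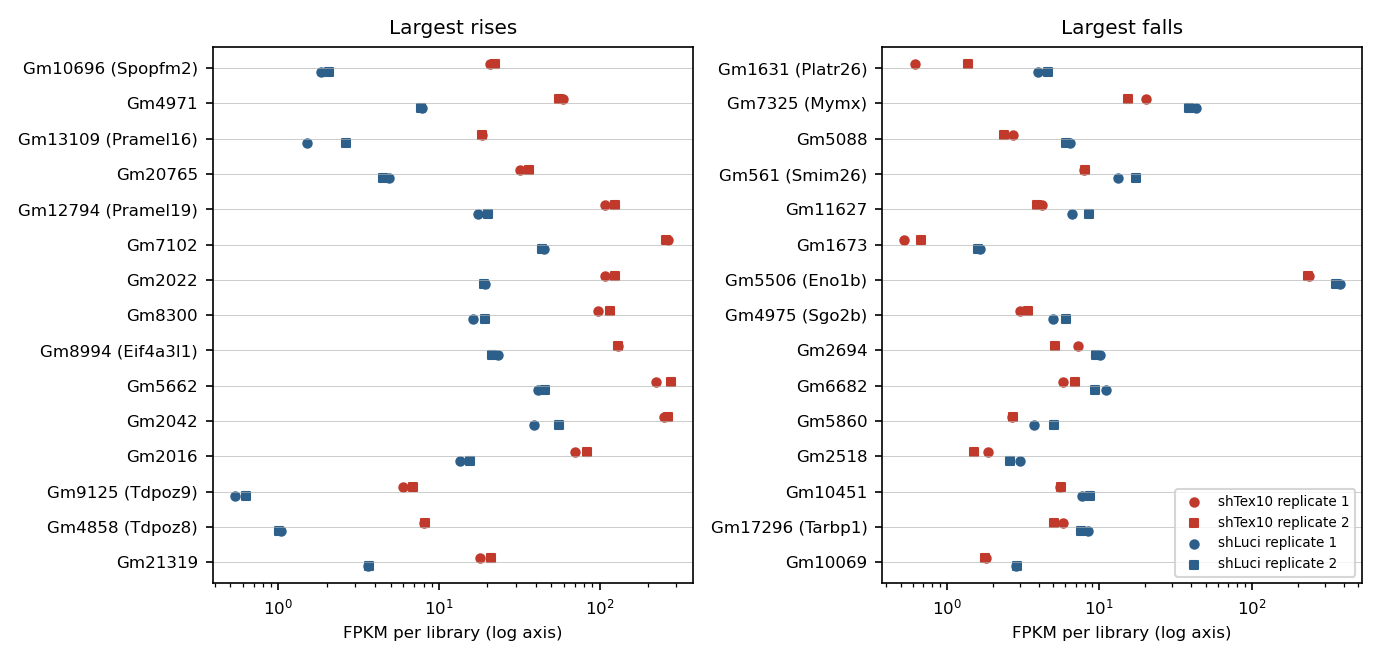
FPKM in each of the 4 libraries (log axis) for the 15 Gm models with the largest rises (left) and the 15 with the largest falls (right) among those that passed the test without overlap of groups. Red marks are shTex10 and blue marks shLuci, with circles for replicate 1 and squares for replicate 2; the gap is several-fold for each riser and, among the falls, widest for Gm1631.

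Some rises lay outside the models listed for the 2-cell-like state and the families above. Whether these belong to that state was not tested. Gm7102 (chromosome 19, 61223356 to 61261990), the most abundant of the risers, had 268 and 258 FPKM in the shTex10 libraries, against 44.7 and 44.0 FPKM in the shLuci libraries. Gm4971, a transcribed pseudogene on chromosome 7, had 59.0 and 55.8 FPKM in shTex10, against 7.79 and 7.70 FPKM in shLuci. Replicates were close and the groups well apart for both, with log2 changes of 2.54 (SE 0.08) and 2.74 (SE 0.09; limma, Benjamini-Hochberg adjusted p = 0.00014 each). Over 48.7% of its length Gm7102 is 95.6% identical to Mplkip, a gene linked in humans to a hair disorder, and Mplkip did not pass the test (log2 change 0.05). Gm4971 is 96.9% identical to another Gm model, Gm4930.

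Several further risers sat beside or within genes that moved as well. Gm11544 (chromosome 11) had 9.10 and 9.13 FPKM in shTex10 and 1.62 and 1.78 FPKM in shLuci (log2 change 1.91), and its locus overlaps Tmem92, which rose by 2.24. Its neighbour Gm11545 rose by 1.37. On chromosome 5, Gm17019 rose by 1.66 and Gm9758 by 0.95 on a locus they share with Speer family genes, known from the testis. There Speer4d rose by 2.65, Speer8-ps1 by 2.22 and Speer4e by 1.23. Gm10532, a long non-coding RNA that overlaps Ctif, had 6.34 and 5.42 FPKM in shTex10 and 0.667 and 0.536 FPKM in shLuci. It rose 9.78-fold, while Ctif did not pass the test (-0.21). Gm10532, Gm11545 and Gm9758 passed the mean of 1 only through shTex10, with shLuci means of 0.601, 0.607 and 0.422 FPKM. Their rises were thus favoured by the choice of models. Gm4305 rose by 1.88 and is 100% identical to Gm4303, so its value belongs to the set of copies. Gm6792 (Epp13) rose by 1.66.

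Some named risers have known roles. Gm1564 (Meioc), a gene needed for meiotic prophase, had 11.5 and 13.8 FPKM in the shTex10 libraries, against 3.36 and 3.93 FPKM in the shLuci libraries. Gm10664 (Apela), which encodes a small peptide ligand of the apelin receptor made by ES cells, had 81.4 and 92.9 FPKM in shTex10, against 53.4 and 58.0 FPKM in shLuci. Both rose without overlap of the groups, with log2 changes of 1.55 (SE 0.12) and 0.63 (SE 0.11; limma, Benjamini-Hochberg adjusted p = 0.000539 and 0.0051). The non-coding Gm17644 had 114 and 116 FPKM in shTex10 and 48.8 and 51.8 FPKM in shLuci, a log2 change of 1.17. Gm3143, also non-coding, rose by 1.00 at a mean of 2.11 FPKM in shTex10 and 0.553 FPKM in shLuci. It passed the mean of 1 only through shTex10, which favoured its rise.

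The remaining clusters lay on chromosomes 4 and 2 and moved little. KRAB zinc finger proteins, the class to which many of the chromosome 4 genes belong, bind DNA and are known as repressors of retroelements. Of 9 chromosome 4 zinc finger Gm models that were tested 2 rose and 0 fell, with a median log2 change of 0.11. Among all genes tested, 19.8% rose and 31.8% fell, so the share that rose was near that of all genes. Of 4 tested genes of that list with other names 0 passed (range -0.21 to 0.42). The most abundant, Gm13242 (Zfp980), had 189 and 233 FPKM in the shTex10 libraries and 189 and 234 FPKM in the shLuci libraries. These groups overlapped fully, with the replicates of each group differing by more than the group means. Gm13247 (Zfp981) had 95.8 and 121 FPKM in shTex10 and 78.4 and 95.5 FPKM in shLuci and did not pass (log2 change 0.31, adjusted p = 0.139). For both models replicate 2 was the higher library in each group, and the fit did not pair libraries by replicate number.

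The 2 that rose were Gm13051 (Zfp987) and Gm13212. Gm13051 had 87.9 and 112 FPKM in shTex10 and 60.3 and 77.7 FPKM in shLuci, a log2 change of 0.53 (SE 0.17, adjusted p = 0.0435 by limma). Gm13212 had 47.4 and 49.5 FPKM in shTex10 and 37.8 and 39.7 FPKM in shLuci, a log2 change of 0.31 (SE 0.09, adjusted p = 0.0274). Both rises were small beside those of the chromosome 12 models, and both calls are weak. That of Gm13051 was lost without shTex10 replicate 2 or shLuci replicate 1, and that of Gm13212 when any of the 4 libraries was left out. The pseudogene Gm13238 beside Gm13212 rose by 0.39, a call lost without shTex10 replicate 1 or shLuci replicate 1.

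These models lie in 2 clusters on chromosome 4, of 3 models (144980740 to 145427895) and of 8 models (145564760 to 147183897). The clusters summed to 260 and 302 FPKM in shTex10 and 242 and 291 FPKM in shLuci for the first, and to 338 and 423 FPKM in shTex10 and 282 and 342 FPKM in shLuci for the second. The groups overlap in both sums. The windows of their promoters resemble each other, for example at 94.8% identity between Gm13157 and Gm13212 and 89.1% between Gm13051 and Gm13242. A row that names Gm13139 and Gm13152 together is outside the sum of the second cluster and the values of either model. It had 49.7 and 59.7 FPKM in shTex10 and 42.7 and 51.7 FPKM in shLuci (log2 change 0.21) and did not pass. That is more than the separate rows of Gm13139 and Gm13152 hold. The remaining models of the second cluster, Gm13139, Gm13251, Gm13154, Gm13157 and Gm13152, had log2 changes between -0.02 and 0.14 and did not pass. The exception in size was Gm13034, a pseudogene 97.2% identical to the chromatin remodeller Smarca5, with 16.1 and 19.7 FPKM in shTex10 and 6.18 and 8.30 FPKM in shLuci. Gm13034 rose by 1.20 (SE 0.16, adjusted p = 0.00265 by limma). Smarca5-ps, on the locus of the first cluster, rose by 1.15, and Smarca5 did not pass (-0.06).

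A cluster of 4 models on chromosome 2 (177493992 to 177691994) summed to 21.4 and 25.5 FPKM in shTex10, against 27.8 and 31.4 FPKM in shLuci. For Gm14322, Gm14325 and Gm14326 both shTex10 libraries were below both shLuci libraries, with log2 changes of -0.33, -0.35 and -0.31, but 0 of the 4 passed (adjusted p between 0.0567 and 0.962). Their promoter windows are 95.5% to 96.4% identical. Gm14327 had 2.31 and 2.94 FPKM in shTex10 and 2.54 and 2.72 FPKM in shLuci, with overlapping groups.

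**Figure D4:**
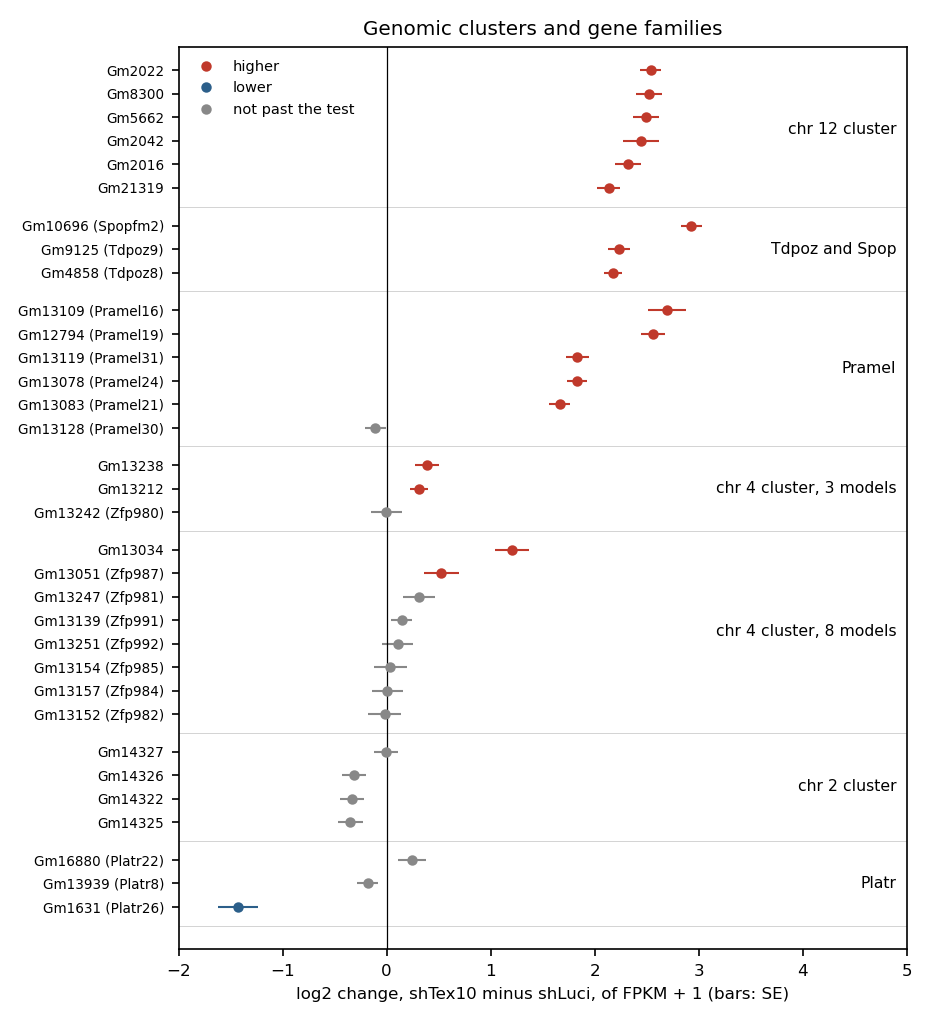
Log2 change of FPKM + 1, shTex10 minus shLuci, of the Gm models in the 4 genomic clusters and of the models renamed Tdpoz, Spop, Pramel or Platr in RefSeq, with bars for the SE from limma over 2 libraries per group. All 6 chromosome 12 models lie between 2.14 and 2.54, while the models of the chromosome 4 and chromosome 2 clusters lie between -0.35 and 0.53, except Gm13034 at 1.20.

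Falls were fewer and smaller than rises. The largest was Gm1631 (Platr26; chromosome 2, 71557140 to 71569023), one of the pluripotency-associated transcripts, a set of non-coding RNAs named for their expression in ES cells. It had 0.620 and 1.38 FPKM in the shTex10 libraries, against 3.97 and 4.62 FPKM in the shLuci libraries, without overlap. The mean was 0.233-fold that of shLuci, with a log2 change of -1.43 (SE 0.19, limma, Benjamini-Hochberg adjusted p = 0.00266). The other members of that set among the models did not pass. Gm16880 (Platr22) averaged 5.41 FPKM in shTex10 and 4.44 FPKM in shLuci, and Gm13939 (Platr8) averaged 7.42 FPKM in shTex10 and 8.54 FPKM in shLuci.

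Gm7325 (Mymx) encodes a micropeptide that drives the fusion of myoblasts. It had 20.2 and 15.4 FPKM in the shTex10 libraries, against 43.3 and 38.8 FPKM in the shLuci libraries, and fell by 1.17 on the log2 scale (SE 0.14, adjusted p = 0.00201 by limma). Gm5088, a transcribed pseudogene, had 2.70 and 2.37 FPKM in shTex10 and 6.40 and 6.03 FPKM in shLuci, and fell by 1.03. These and Gm1631 were the only 3 models to fall by at least 2-fold on that scale. Within 10 kb of Gm7325, Slc29a1, a nucleoside transporter gene, fell by 0.89. Gm561 (Smim26), which encodes a small integral membrane protein, had 7.91 and 8.02 FPKM in shTex10, against 13.3 and 17.5 FPKM in shLuci, and fell by 0.86. Its neighbours moved in opposite directions, as Dtd1 fell by 0.73 and Sec23b rose by 0.51.

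Among the smaller falls, Gm4975 (Sgo2b), a relative of shugoshin, had 3.01 and 3.39 FPKM in shTex10 and 5.01 and 6.02 FPKM in shLuci. Gm17296 (Tarbp1), an RNA methyltransferase gene, had 5.81 and 5.07 FPKM in shTex10 and 8.38 and 7.60 FPKM in shLuci. Both fell without overlap, by 0.63 and 0.48. The others of the 15 largest falls were Gm11627, Gm1673, Gm5506, Gm2694, Gm6682, Gm5860, Gm2518, Gm10451 and Gm10069, whose log2 changes ran from -0.76 to -0.47. Ppp1r36 rose by 1.40 within 10 kb of Gm10451, and Fkbp4 fell by 1.36 within 10 kb of Gm10069. The fall of Gm5860 was lost without shLuci replicate 2. The calls of Gm2694, Gm6682, Gm5860, Gm2518, Gm10451 and Gm17296 were also lost when libraries were rescaled to the same named sum. When libraries were instead scaled to equal sums over all rows, unnamed ones included, the calls of 14 of the 15 were lost and only Gm1631 stayed past the threshold, with 892 of all genes called under that scaling.

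Some models could be set beside the gene they resemble most, whether a parent gene, a member of the same family or a partial match. Only the single most similar gene of each model was taken. For 35 models that gene had a name not of the Gm kind, covered at least 40% of the transcript and was itself tested. Models closest to another Gm model are left out. Among them are the risers Gm2016, Gm2022, Gm5662 and Gm21319, which also align to Eif1a (log2 change -0.05, not past the test). Of these 35, 17 models passed the test, beside 51.6% of all genes tested, and in 11 cases both the model and its relative passed. Both were higher in 5 of those 11, among them Gm8300 with BB287469, Gm4858 with Tdpoz4, and Gm13078 and Gm13083, both with Pramef6. Both were lower in 4, among them Gm5506 with Eno1 and Gm6682 with Tuba1c, and in 2 pairs the model rose while its relative fell. The pairs are not independent, since Pramef6 stands in 2 of them, and no background share was computed for them. Where copies are near-identical, shared reads could give both the same direction, which was not tested.

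Gm5506 (Eno1b), 99.5% identical to the glycolytic enzyme gene Eno1, was the most abundant model, with 238 and 235 FPKM in the shTex10 libraries and 379 and 356 FPKM in the shLuci libraries. It fell by 0.63 on the log2 scale (adjusted p = 0.00272 by limma), a call lost after quantile normalization, and Eno1 fell by 0.68. Gm6682, 97.8% identical to the tubulin gene Tuba1c, had 5.82 and 6.88 FPKM in shTex10 and 11.1 and 9.35 FPKM in shLuci. It fell by 0.61 and Tuba1c by 0.74. Gm12070, 99.9% identical to Gapdh with 67 near-identical copies, had 8.40 and 6.49 FPKM in shTex10 and 6.93 and 14.3 FPKM in shLuci, with overlapping groups, while Gapdh fell by 0.83. Gm1821 (Ubb-ps), 97.7% identical to the ubiquitin gene Ubb, had 168 and 167 FPKM in shTex10 and 170 and 186 FPKM in shLuci. Neither Gm1821 nor Ubb passed the test, with log2 changes of -0.09 and -0.10.

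Other models parted from the gene they resemble. Gm2027, 92.4% identical to Naf1, which encodes an assembly factor of H/ACA ribonucleoproteins, had 9.05 and 10.1 FPKM in shTex10, against 2.36 and 2.27 FPKM in shLuci. It rose by 1.67 (SE 0.10, adjusted p = 0.00025 by limma), while Naf1 had 17.6 and 18.3 FPKM in shTex10, against 38.2 and 41.6 FPKM in shLuci, and fell by 1.11. Gm17821, 85.7% identical to Dcaf5, had 19.1 and 22.6 FPKM in shTex10 and 8.35 and 9.78 FPKM in shLuci and rose by 1.12. Dcaf5 did not pass (-0.03). Gm15455 rose by 0.76 while Rbm10, at 97.9% identity, fell by 0.35. Gm15455 passed the mean of 1 only through shTex10, with an shLuci mean of 0.736 FPKM, which favoured its rise.

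**Figure D5:**
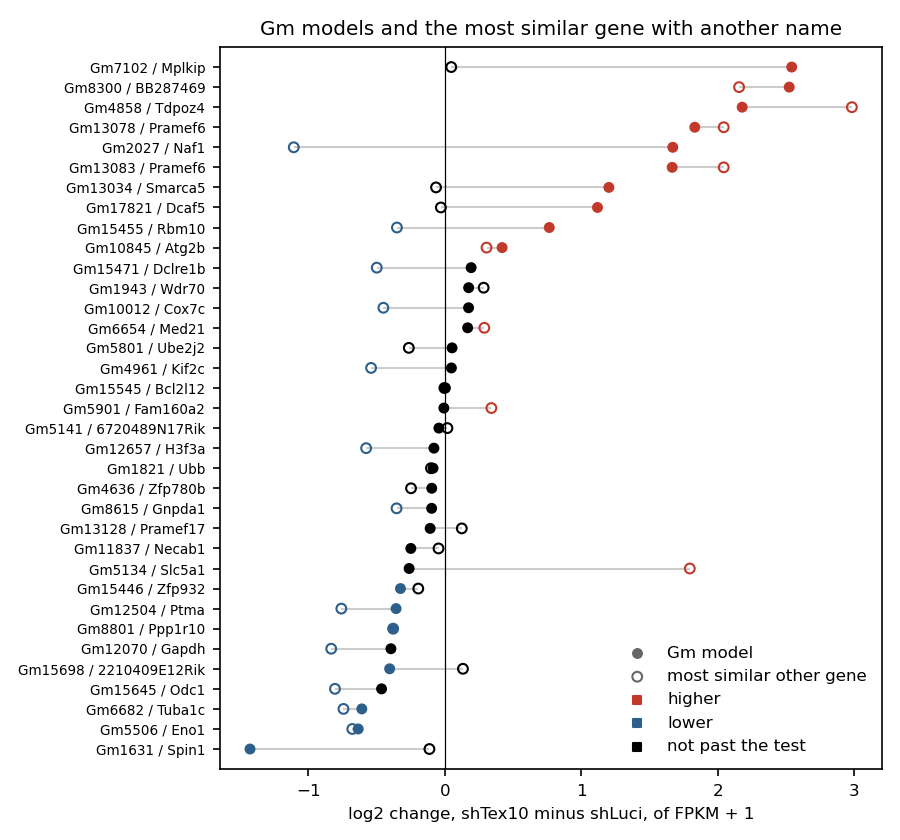
Log2 change of FPKM + 1, shTex10 minus shLuci, of 35 Gm models (filled) and of their most similar gene (open), named as model / gene and joined by a line. Shown are models whose most similar gene has a name not of the Gm kind and was tested, and models closest to another Gm model are left out. Colours give the limma call of each; Gm5506 and Gm6682 lie close to Eno1 and Tuba1c, while Gm7102, Gm2027 and Gm13034 lie far above Mplkip, Naf1 and Smarca5.

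Several abundant or well-known models did not pass the test. Gm11974 (Snhg15), the host of a small nucleolar RNA, had 43.9 and 42.4 FPKM in the shTex10 libraries and 42.3 and 43.8 FPKM in the shLuci libraries. Gm20748 (Bvht), a non-coding RNA known from cardiac commitment of ES cells, had 8.46 and 8.75 FPKM in shTex10 and 9.58 and 9.22 FPKM in shLuci. Their log2 changes were 0.00 (SE 0.08) and -0.11 (SE 0.09). Gm12238, the small nucleolar RNA within G3bp1, had 116 and 82.7 FPKM in shTex10 and 66.5 and 27.0 FPKM in shLuci, with libraries of a group far apart. Its log2 change was 1.19 (SE 0.41, adjusted p = 0.0555), and G3bp1 fell by 0.78. Such short RNAs are poorly captured by poly(A) selection. Gm10653 rose by 1.31 with similarly wide spread, at 38.2 and 23.2 FPKM in shTex10 and 14.1 and 9.19 FPKM in shLuci. Gm2381, a chromosome 7 pseudogene most similar to Zfp976, fell by 0.45, a call lost without shLuci replicate 2.

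The libraries of a group are biological replicates by the series design, which names no cultures or batches, so the p-values measure the spread between these libraries. For a single model, the smallest p that an exact permutation test of these groups allows, two-sided, is 0.33. With 1 hairpin per group, off-target effects of the hairpins cannot be told apart from those of the depletion of Tex10.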

How the data were processed

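RNA of CCE ES cells was measured in 2 shTex10 and 2 shLuci libraries. The deposited values are FPKM, given by the authors per library in tables with the same 30640 rows, of which 7329 carry no gene name (56.3% to 71.6% of summed FPKM). Build mm9 and the tools Cufflinks 2.1.1, Bowtie2 2.1.0 and TopHat2 2.0.10 come from the submitters' processing notes. The sources used here give neither options, annotation nor use of strand. FPKM divides by mapped fragments, so a few abundant features can shift all others.

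Rows sharing a name were summed (23 of the models had several rows). Genes with a mean of at least 1 FPKM (11883) were fitted on log2(FPKM + 1), pseudocount 1, with limma 3.58.1 in R 4.3.3 (eBayes with trend, no block) and Benjamini-Hochberg adjustment over all of them at 0.05. The fit was tested on simulated data. Transcripts were compared with BLAST 2.17.0 against GENCODE vM21 (158 models matched), and names and promoters came from RefSeq for GRCm38.p6. Locus positions are those of the files, in mm9. Clusters needed 3 models with gaps of at most 100 kb.

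The members and gene lists were chosen with earlier results of these data known. Named models were the 15 largest changes per direction among non-overlapping calls, the 12 highest means, cluster and list members and the 3 on each side of the limit, with neighbours within 10 kb. Gm10532, Gm11544, Gm4305, Gm21947, Gm2027, Gm13083, Gm6792, Gm17019, Gm1564, Gm11545, Gm10653, Gm13128, Gm17821, Gm15455, Gm11564, Gm7609, Gm4285, Gm13399, Gm1045, Gm3143, Gm16880, Gm13939, Gm11974, Gm20748, Gm12070 and Gm2381 were chosen after their values were seen, as were the genes that share the promoter run and those most similar to a model. Alternatives were other pseudocounts, filters, scalings and row choices, the replicate number as a block and leaving out each library.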

Additional observations from a re-analysis of the deposited data

Results flagged for a closer look

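Rows that name several genes at once, among them a Gm model, lie outside the comparison because their FPKM cannot be divided between the names. Of 52 such names 12 passed the mean of 1, of which 5 were higher and 2 lower in shTex10, beside 19.8% higher and 31.8% lower among all genes tested. The 4 given here were picked because their signal rose at least 2-fold on the log2(FPKM + 1) scale above the level in the control libraries. The row of Gm10696 with Gm9125 had 10.0 and 11.4 FPKM in shTex10, against 1.11 and 1.17 FPKM in shLuci, a log2 change of 2.45. The row of Gm1995 with Oog1 overlaps the locus of Gm8300 in the chromosome 12 cluster. It had 19.8 and 18.4 FPKM in shTex10, against 3.30 and 3.03 FPKM in shLuci, a log2 change of 2.27. The row of Gm11554, Gm11569 and the keratin-associated gene Krtap4-13 had a log2 change of 1.73, at 6.30 and 6.08 FPKM in shTex10 and 1.36 and 0.981 FPKM in shLuci. The row of BC080695, Gm13043 and Gm13057 had a log2 change of 1.66, at 4.92 and 5.44 FPKM in shTex10 and 0.925 and 0.972 FPKM in shLuci.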

How the results depend on the processing

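The number of models that rose was 59 and stayed within 1.5 times that count, from 40 to 73, except at 32 with a mean of at least 5 FPKM (76 models left) and 36 with equal sums over all rows. The number that fell was 28 and was less stable: 17 with no filter, 9 with a mean of at least 5, 11 with equal sums over named rows, 1 with equal sums over all rows and 18 over the 104 models that overlap no other named locus. Over all genes, 1292 rose and 3120 fell of 8542 with a mean of at least 5, and 3091 rose and 3632 fell of 19307 with no filter. With equal sums over all rows, 655 of all 11883 genes rose and 237 fell. The median of 0.14 became 0.33 with equal named sums, 0.049 with a mean of at least 1 in each group, 0.24 without overlapping loci and 0.073 without the 2-cell-like list, an alternative chosen after seeing the data. Leaving out 1 library gave 56 to 68 rises, 26 to 30 falls and medians of 0.11 to 0.18. With the replicate number as a block, 73 rose and 43 fell. The labels give no shared batch and there are only 2 pairs, whose deviations correlated at 0.33 over all genes and 0.19 over the models, so the numbers are not taken to pair the libraries. Of 60 named models past the test, 25 lost their call with equal sums over all rows (all of the 15 largest falls but Gm1631 among them), 7 with equal named sums and 4 with no filter; the cause was not tested. Signs turned for some models, all without a call as deposited and between -0.18 and 0.11 there except Gm12070 at -0.40. Gm13242 was at 0.065 with equal medians, 0.35 after quantile normalization, 0.22 with equal named sums and 0.0026 with equal total sums. Gm1821 was at 0.26 after quantile normalization and 0.14 with equal named sums. Gm14327 and Gm13152 were at 0.043 and 0.040 with equal medians and at 0.16 and 0.18 with equal named sums, under which Gm13128, Gm13939 and Gm20748 were at 0.078, 0.020 and 0.091. Leaving out 1 library gave -0.16 to 0.15 for Gm13242, -0.047 to 0.26 for Gm13251, -0.17 to 0.24 for Gm13154, -0.15 to 0.16 for Gm13157, -0.13 to 0.12 for Gm14327, -0.24 to 0.20 for Gm13152, -0.023 to 0.027 for Gm11974 and -0.87 to 0.080 for Gm12070. Depth is unknown, so no counting error can be given.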

Other observations

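A few further models rose outside the families and clusters described above; they were chosen after their values were seen. Gm11564 (mm9 chromosome 11, 99676289 to 99676980) had 4.70 and 3.93 FPKM in the shTex10 libraries, against 0.669 and 0.782 FPKM in the shLuci libraries, a log2 change of 1.62 (SE 0.11, limma, Benjamini-Hochberg adjusted p = 0.000351). It lies within 10 kb of the row that names Krtap4-13, whose log2 change was 1.73. Gm7609 on chromosome 1 had 4.58 and 4.39 FPKM in shTex10 and 1.58 and 1.02 FPKM in shLuci, and rose by 1.26. Over 57.9% of its length its transcript is 99.3% identical to that of another model, Gm15433, so reads of that stretch may belong to either. The non-coding Gm4285 rose by 1.14, at 2.66 and 3.09 FPKM in shTex10 and 0.757 and 0.749 FPKM in shLuci. Gm11564 and Gm4285 passed the mean of 1 only through shTex10, which favoured their rises. Gm13399 (Dbhos), named as a transcript opposite the dopamine beta-hydroxylase gene, rose by 0.69, and Gm1045 (Odaph), a gene of tooth enamel formation, by 0.65.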
